A study of Mus musculus with 10 samples.

Results

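The 10 genes followed here belong to the polycomb system and were measured in plasma cells of 2 isotypes: the methyltransferases Ezh2 and Ezh1, their partners Eed, Suz12, Rbbp4, Rbbp7 and Jarid2, the ubiquitin ligase subunits Rnf2 and Bmi1, and the demethylase Kdm6b. They were chosen by symbol, and all 10 were found among 47719 listed gene identifiers through GENCODE M21 on GRCm38. The study sorted tdTomato+ IgG1 plasma cells (5 libraries), set against tdTomato+ IgM plasma cells (5 libraries), both from the spleen. In both groups the cells came from congenically marked donor B cells that carried S1PR2-CreERT2, a tamoxifen-inducible Cre driven in germinal centre B cells, with Ai14, a reporter that turns on tdTomato after Cre acts, and B1-8germ, a germline heavy chain gene that binds the hapten NP. Wild-type hosts of both groups were given NP-CGG with alum (day 0) and then tamoxifen (day 5 and day 6), and cells were sorted on day 10. The marked cells are those in which Cre acted at that time, so unmarked plasma cells are not covered. The comparison asks how plasma cells that share this marking differ with their isotype. Their germinal centre origin is taken from the marking and was not tested here.

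Polycomb repressive complex 2 (PRC2) places methyl groups on lysine 27 of histone H3, a mark of silenced genes. Its catalytic subunit is EZH2 or the related EZH1, held by EED and SUZ12, and EZH2 is typical of dividing cells while EZH1 persists in resting ones. Complex 1 (PRC1) holds RING1 or RNF2 and a PCGF protein such as BMI1, and attaches ubiquitin to histone H2A. In germinal centre B cells EZH2 is abundant and is known to restrain genes of the plasma cell programme, and KDM6B and KDM6A remove the mark that PRC2 writes.

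The 2 catalytic genes, a PRC2 scaffold gene and a PRC1 core gene are shown by their start regions: of these genes Ezh1, Suz12 and Bmi1 fell in IgG1 cells and Ezh2 did not pass the test. RefSeq promoter windows on GRCm38.p6 hold 250 bases before and 50 bases after an annotated start, and 9 of the 10 genes matched an entry, all but Kdm6b. Capitals mark matches, on either strand, to E2F (TTTCCCGC, TTTGGCGC, TTTCGCGC or TTTGCCGC), CRE (TGACGTCA), NRF1, ETS (CCGGAAG), YY1 (AANATGGC), AP-1 (TGANTCA) and E-box (CACGTG) letters.
Ezh2 (chr6:47594981-47595280, minus strand): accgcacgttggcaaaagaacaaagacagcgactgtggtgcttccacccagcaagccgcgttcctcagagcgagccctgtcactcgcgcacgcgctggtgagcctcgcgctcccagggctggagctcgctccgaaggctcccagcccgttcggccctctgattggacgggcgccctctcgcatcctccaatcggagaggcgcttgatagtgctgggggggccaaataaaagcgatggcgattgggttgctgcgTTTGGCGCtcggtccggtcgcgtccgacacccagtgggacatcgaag
Ezh1 (chr11:101226414-101226713, minus strand): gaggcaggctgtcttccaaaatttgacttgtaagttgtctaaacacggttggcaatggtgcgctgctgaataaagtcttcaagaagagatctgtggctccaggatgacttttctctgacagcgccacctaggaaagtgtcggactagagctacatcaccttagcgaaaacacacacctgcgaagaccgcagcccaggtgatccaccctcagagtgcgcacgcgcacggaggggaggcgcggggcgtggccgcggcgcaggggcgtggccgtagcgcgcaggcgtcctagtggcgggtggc
Suz12 (chr11:79992856-79993155, plus strand): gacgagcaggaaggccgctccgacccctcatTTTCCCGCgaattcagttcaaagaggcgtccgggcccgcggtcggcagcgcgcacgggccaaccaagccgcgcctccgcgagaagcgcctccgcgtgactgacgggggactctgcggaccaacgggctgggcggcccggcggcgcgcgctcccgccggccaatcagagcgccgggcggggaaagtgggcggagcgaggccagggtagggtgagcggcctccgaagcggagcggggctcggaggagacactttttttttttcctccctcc
Bmi1 (chr2:18676768-18677067, plus strand): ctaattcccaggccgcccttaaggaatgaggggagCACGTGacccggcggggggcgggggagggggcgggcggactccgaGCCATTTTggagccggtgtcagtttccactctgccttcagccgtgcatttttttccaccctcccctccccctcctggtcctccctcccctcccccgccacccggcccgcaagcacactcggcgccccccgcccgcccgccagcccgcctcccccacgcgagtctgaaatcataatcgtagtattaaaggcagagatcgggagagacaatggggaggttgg

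The Ezh2 window held 1 E2F match, TTTGGCGC, whose first base lay at position 3 relative to the start, and the Suz12 window held 1, TTTCCCGC, at position -219. E2F letters were present in 2.26% of 32851 promoter windows of the same length. The Ezh2 and Suz12 windows hold 64.3% and 71.0% GC, above the median of 52.7% over all windows. The shares given here are not matched for GC content. Bmi1 held 1 YY1 match and 1 E-box match, found in 6.05% and 7.15% of all windows, and the Ezh1 window held none of the letters searched. No capitalised matches overlapped in these 4 windows. Shares for the other motifs were 1.79% for CRE, 0.971% for NRF1, 8.86% for ETS and 7.81% for AP-1. CCAAT (37.4% of windows) and GGGCGG (35.7%) were searched without capitals, with 3 CCAAT matches in Ezh2 and 6 GGGCGG matches in Bmi1. The 10 windows of the 9 genes (Jarid2 has 2 starts) held 17 to 41 CpG dinucleotides, against a median of 7 over all windows (quartiles 3 and 20). The windows behind that median were not limited to genes expressed in these cells.

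Of the 10 genes, 9 reached a mean of 1 FPKM over the 10 libraries and were tested, and Kdm6b did not. FPKM is a fragment count scaled to transcript length and to library depth. Relative to IgM cells, 2 rose in IgG1 cells (Rbbp7 and Rbbp4), 4 fell (Bmi1, Ezh1, Rnf2 and Suz12), and Ezh2, Eed and Jarid2 did not pass the test (limma on log2 of FPKM plus 1, Benjamini-Hochberg adjusted p under 0.05). Over all 9900 tested genes 38.3% passed, 18.1% higher and 20.2% lower, so many genes moved between these groups. Of the 9, groups did not overlap for 1 higher gene (Rbbp7) and 2 lower ones (Bmi1 and Suz12). Over all tested genes 26.3% did not overlap, 13.1% higher and 13.3% lower. With quantile normalization 1 of the 9 rose and 2 fell, and after removal of trends with transcript length and GC content 3 rose and 2 fell. Without IgG1 replicates 4 and 5, 1 rose and 2 fell. These settings moved the median log2 difference over all genes from -0.05 to 0.06 and 0.05 (a shift of 0.11 and of 0.10), and to -0.06 without the 2 libraries.

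The libraries of the groups differed in more than the genes described here. Genes listed above 0 FPKM numbered 13286 to 13961 in IgG1 and 15121 to 15800 in IgM libraries, without overlap, and the part of this in the differences was not tested. Depth, which was read off the smallest FPKM increments, came to 26510000 to 38060000 fragments in IgG1 libraries and 27030000 to 31190000 in IgM libraries. All 7 plasma cell markers averaged at least 1 FPKM, led by Jchain, Xbp1 and Slamf7, and summed to 23480 to 26920 FPKM in IgG1 and 40100 to 44320 FPKM in IgM libraries. A sum follows its most abundant genes and does not stand for each marker. Of the 7, 6 fell in IgG1 cells, 85.7% beside 20.2% over all tested genes. Xbp1 rose, a call that 2 alternative settings ended. Markers of T cells (9 genes, 2.13 to 3.81 against 2.60 to 6.62 summed FPKM), myeloid cells (10 genes, 4.44 to 8.198 against 2.62 to 6.88, with S100a8 and S100a9 at 0 throughout) and red cells or platelets (8 genes, 2.11 to 5.82 against 0.0764 to 5.60) were low in IgG1 and in IgM libraries. The 10 mature B cell markers summed to 79.6 to 101 FPKM in IgG1 and 119.8 to 264 FPKM in IgM libraries, without overlap, and the 7 germinal centre markers to 88.3 to 105.6 and 93.6 to 114.7. In bulk libraries, fewer cells of a type and less RNA per cell cannot be told apart. Whether each library stems from its own animal is not stated, so p-values reflect only how far these samples scatter, and that scatter may be technical.

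**Figure D1:**
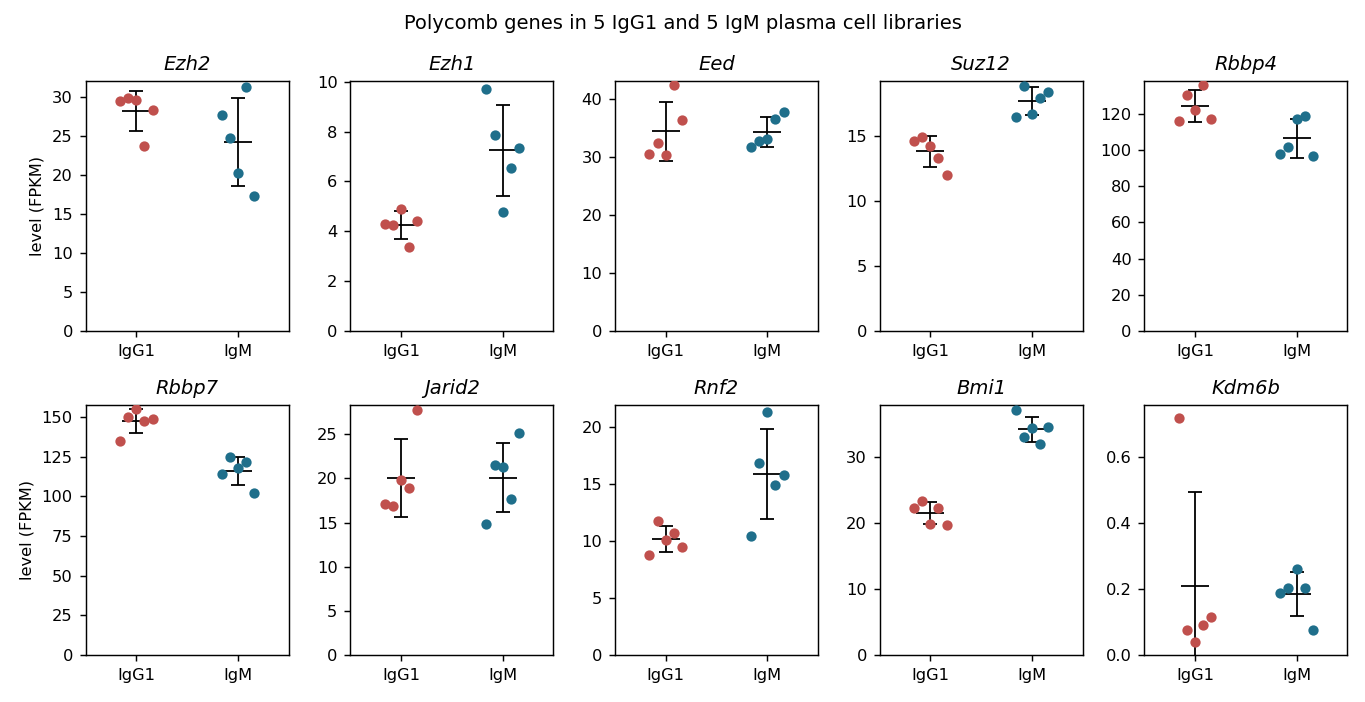
Levels of the 10 polycomb genes in FPKM (y axis, linear from 0, a scale for each gene) in the 5 IgG1 libraries (left) and 5 IgM libraries (right). Points are libraries, bars are means with SD. Bmi1, Suz12 and Rbbp7 separate the groups, as do 26.3% of all tested genes. In Kdm6b 1 IgG1 library stands at 0.719 FPKM, above all others.

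The catalytic genes did not move together. Ezh1 (chromosome 11, 101191115 to 101226463, minus strand), the methyltransferase of resting cells, fell in IgG1 cells. Its levels were 4.30, 4.24, 4.90, 3.36 and 4.40 FPKM in IgG1 libraries 1 to 5, against 9.70, 7.85, 4.78, 6.52 and 7.35 FPKM in IgM libraries 1 to 5. IgM replicate 3 alone lay inside the IgG1 range, and the IgM values were the more scattered, with a coefficient of variation of 13.1% in IgG1 and 24.9% in IgM libraries. The mean was 4.24 ± 0.556 FPKM in IgG1 and 7.24 ± 1.81 FPKM in IgM cells (SD, n = 5 each; log2 difference -0.63, SE 0.18, limma adjusted p = 0.0116). That call ended with quantile normalization (adjusted p = 0.0682) and when IgG1 replicates 4 and 5 were dropped (0.0579), with the same direction.

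Ezh2 (chromosome 6, 47530139 to 47595341, minus strand), the methyltransferase of dividing cells, stood at 29.5, 29.8, 29.6, 23.8 and 28.4 FPKM in IgG1 libraries, against 27.7, 24.7, 20.3, 31.35 and 17.3 FPKM in IgM libraries. The IgM libraries spanned the whole IgG1 range, and both the highest and the lowest value were theirs. The means were 28.2 ± 2.56 and 24.3 ± 5.62 FPKM (IgG1 and IgM, SD, n = 5 each), and the log2 difference of 0.23 did not pass (limma adjusted p = 0.199, 95% interval -0.06 to 0.53). Removal of length and GC trends raised it to 0.41, which passed (adjusted p = 0.0322). Thus no difference in Ezh2 was detectable in the values as deposited, and the interval reaches to a difference of 0.53 on the log2 scale.

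Set against each other within a library, the 2 catalytic genes differed in balance. FPKM is per transcript length, so levels of 2 genes can be set side by side, but remaining length and GC effects were not removed from the shares. The longest Ezh1 transcript has 4207 bases at 51.2% GC and that of Ezh2 2787 bases at 44.4% GC. Ezh2 made up 87.3%, 87.6%, 85.8%, 87.6% and 86.6% of summed Ezh1 and Ezh2 FPKM in IgG1 libraries, against 74.0%, 75.9%, 81.0%, 82.8% and 70.2% in IgM libraries. Every IgG1 share lay above every IgM share, and the IgG1 shares lay within a narrow band. The mean share was 86.97% ± 0.771 in IgG1 and 76.8% ± 5.13 in IgM cells (SD, n = 5 each), 10.2 points apart (exact permutation test, two-sided, p = 0.00794, adjusted p = 0.0397 over 5 shares). No smaller p can come from 5 libraries in each group. The sum of both genes was 32.5 ± 3.06 FPKM in IgG1 and 31.5 ± 6.41 FPKM in IgM cells, less apart than the spread between libraries.

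For the other pairs of alternative subunits the difference in share did not pass the test. Rbbp4 was 45.7% ± 1.68 of Rbbp4 and Rbbp7 together in IgG1 and 47.8% ± 2.14 in IgM libraries (exact permutation p = 0.119, adjusted p = 0.278). Rnf2 was 72.2% ± 4.29 of RING-type ligase FPKM (Rnf2 plus Ring1) in IgG1 and 74.2% ± 7.36 in IgM libraries (exact permutation p = 0.659, adjusted p = 0.659), a difference of -1.92 points that turned to 0.479 without IgM replicate 3. Bmi1 was 99.0% ± 1.06 of Bmi1 plus its paralogue Pcgf2 in IgG1 and 99.8% ± 0.358 in IgM libraries (exact permutation p = 0.167, adjusted p = 0.278). Pcgf2 was listed at 0 in 1 IgG1 library and in 3 IgM libraries.

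**Figure D2:**
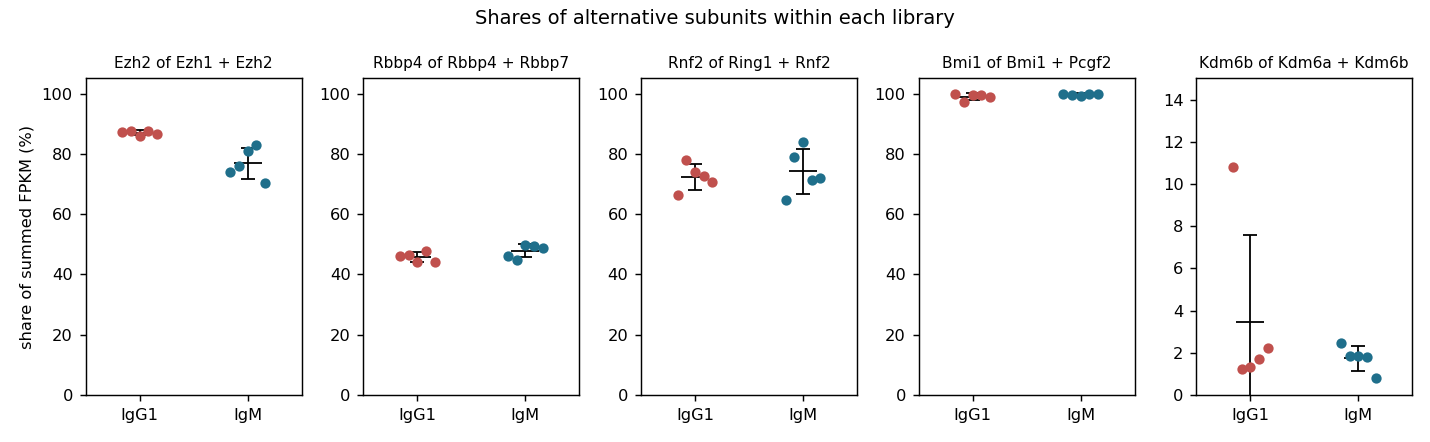
Share (%) of the first named gene in the summed FPKM of 2 alternative subunits (y axis, from 0, with a shorter axis for Kdm6b), for 5 IgG1 libraries (left) and 5 IgM libraries (right). Points are libraries, bars are means with SD. The Ezh2 share lies between 85.8% and 87.6% in IgG1 and between 70.2% and 82.8% in IgM libraries.

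Of the noncatalytic core of PRC2, Suz12 fell in IgG1 cells and Eed did not pass the test. Suz12 (chromosome 11, 79993106 to 80034123, plus strand), which holds the complex together, stood at 14.6, 14.9, 14.2, 13.3 and 12.0 FPKM in IgG1 libraries, against 16.4, 18.9, 16.7, 17.9 and 18.4 FPKM in IgM libraries. The groups did not overlap, but the gap between IgG1 replicate 2 and IgM replicate 1 was small. The means were 13.8 ± 1.17 and 17.7 ± 1.07 FPKM (IgG1 and IgM, SD, n = 5 each; log2 difference -0.33, SE 0.12, limma adjusted p = 0.0289). The call lies near the threshold: it ended with quantile normalization (adjusted p = 0.107), without length and GC trends (log2 difference -0.03, adjusted p = 0.863), when IgG1 replicates 4 and 5 were both dropped (0.14), and without any of IgG1 replicates 4 and 5 or IgM replicates 2, 4 and 5 alone (adjusted p = 0.0513 to 0.0685). Its longest transcript has 4373 bases at 41.6% GC.

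Eed (chromosome 7, 89954654 to 89980983, minus strand), which binds the methylated histone, stood at 30.5, 32.4, 30.2, 42.4 and 36.3 FPKM in IgG1 libraries, against 31.7, 32.7, 33.15, 36.5 and 37.7 FPKM in IgM libraries. The IgM range lay inside the IgG1 range, with means of 34.4 ± 5.09 and 34.4 ± 2.59 FPKM. The log2 difference was -0.01 (95% interval -0.23 to 0.21, limma adjusted p = 0.963), and its sign changed between settings. Jarid2 (chromosome 13, 44729474 to 44921643, plus strand), which helps bring PRC2 to its targets, stood at 17.1, 16.8, 19.9, 18.9 and 27.7 FPKM in IgG1 libraries, against 14.8, 21.5, 21.3, 17.7 and 25.1 FPKM in IgM libraries. Means were 20.1 ± 4.45 and 20.1 ± 3.94 FPKM, and the log2 difference was -0.0026 (95% interval -0.33 to 0.32, limma adjusted p = 0.993), also with a sign that changed between settings. These intervals leave room for differences of about those bounds.

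The histone-binding genes Rbbp7 and Rbbp4 were the most abundant of the 10 and were the members that rose. Their proteins sit in PRC2 and also in histone deacetylase and chromatin assembly complexes. Rbbp7 (chromosome X, 162760402 to 162779092, plus strand) stood at 135, 150.4, 155, 148 and 149 FPKM in IgG1 libraries, against 114, 125, 118, 122 and 102 FPKM in IgM libraries. Every IgG1 library lay above every IgM library, with means of 148 ± 7.41 and 116 ± 8.74 FPKM (SD, n = 5 each; log2 difference 0.35, SE 0.07, limma adjusted p = 3.93e-04). This call held under every alternative run. Rbbp7 shares 174 exon bases with Txlng on the other strand, which fell in IgG1 cells (2.99 against 5.69 FPKM, limma adjusted p = 0.0232), and the library kit is not stated to keep strand.

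Rbbp4 (chromosome 4, 129307100 to 129335370, minus strand) stood at 116, 130.3, 122, 136 and 117 FPKM in IgG1 libraries, against 97.6, 102, 117, 119 and 96.8 FPKM in IgM libraries. IgM replicates 3 and 4 lay inside the IgG1 range. The means were 124 ± 8.69 and 106 ± 10.6 FPKM (log2 difference 0.22, SE 0.07, limma adjusted p = 0.0238). The call ended under quantile normalization (adjusted p = 0.0931), without a filter (0.109), without trend or robust settings (0.078), without IgG1 replicates 4 and 5 (0.0725) and without any of IgG1 replicates 2 and 4 or IgM replicates 1, 2 and 5 alone (0.0537 to 0.0655). The direction was the same in each.

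Both PRC1 core genes among the 10 fell in IgG1 cells. Bmi1 (chromosome 2, 18677018 to 18686629, plus strand), the PCGF subunit that represses the Cdkn2a locus, stood at 22.2, 23.4, 19.8, 22.3 and 19.7 FPKM in IgG1 libraries, against 37.1, 33.0, 34.3, 31.97 and 34.6 FPKM in IgM libraries. The groups were far apart for their spread, with a coefficient of variation of 7.72% in IgG1 and 5.63% in IgM libraries. Means were 21.5 ± 1.66 and 34.2 ± 1.93 FPKM (SD, n = 5 each; log2 difference -0.65, SE 0.10, limma adjusted p = 3.54e-05). It passed under every alternative run, and after removal of length and GC trends the difference was -0.36 (adjusted p = 0.00773). Part of its longest transcript, 11.2% of 75-base windows, also occurs in the pseudogene Gm5946, which averaged 0.00623 FPKM.

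Rnf2 (chromosome 1, 151458004 to 151500955, minus strand), which carries the ubiquitin ligase activity, stood at 8.79, 11.7, 10.1, 10.7 and 9.50 FPKM in IgG1 libraries, against 10.4, 16.9, 21.35, 14.9 and 15.8 FPKM in IgM libraries. IgM replicate 1 alone lay inside the IgG1 range. Means were 10.2 ± 1.12 and 15.9 ± 3.92 FPKM (log2 difference -0.57, SE 0.16, limma adjusted p = 0.00961). The call ended without a filter (adjusted p = 0.0599) and after removal of length and GC trends (log2 difference -0.30, adjusted p = 0.162). Rnf2 shares 158 exon bases with Trmt1l on the other strand, a gene of like level that also fell (9.07 against 15.96 FPKM, limma adjusted p = 8.01e-04).

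**Figure D3:**
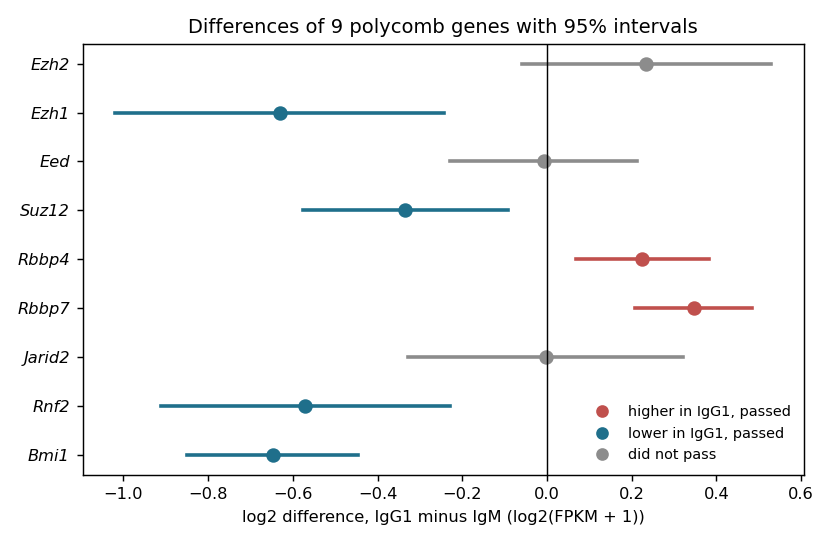
Log2 difference, IgG1 minus IgM, on the log2(FPKM + 1) scale (x axis) for the 9 tested polycomb genes, with 95% intervals from limma. Red marks genes that passed and were higher in IgG1 cells, blue those that passed and were lower, grey those that did not pass. Rbbp7 and Rbbp4 lie above 0, and Bmi1, Ezh1, Rnf2 and Suz12 below.

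Kdm6b (chromosome 11, 69398508 to 69413675, minus strand), an H3K27 demethylase that many cells induce on stimulation, was the lowest of the 10. It stood at 0.719, 0.0754, 0.0405, 0.0906 and 0.115 FPKM in IgG1 libraries, against 0.188, 0.203, 0.259, 0.204 and 0.077 FPKM in IgM libraries. IgG1 replicate 1 was far above the rest, while the other 4 IgG1 libraries lay below 4 of the 5 IgM libraries. At the estimated depths and a longest transcript of 6654 bases, these values correspond to at most 10 to 127 fragments in IgG1 and 14 to 54 in IgM libraries. Means were 0.208 ± 0.287 and 0.186 ± 0.0669 FPKM (difference 0.022 FPKM, two-sided exact permutation p = 0.984). Without IgG1 replicate 1 the difference was -0.106 FPKM (0.0803 ± 0.0312 against 0.186 ± 0.0669 FPKM, n = 4 and 5, exact permutation p = 0.0476), and without IgM replicate 5 it was -0.00531 FPKM, so the direction rests on single libraries.

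The other demethylase gene, Kdm6a, was much more abundant and fell. It stood at 5.91, 6.08, 3.03, 5.29 and 5.10 FPKM in IgG1 libraries, against 7.48, 10.8, 13.9, 11.2 and 9.66 FPKM in IgM libraries, with no overlap (log2 difference -0.94, limma adjusted p = 8.23e-04). Kdm6b thus made up 3.46% ± 4.15 of summed Kdm6a and Kdm6b FPKM in IgG1 and 1.74% ± 0.597 in IgM libraries (exact permutation p = 0.651, adjusted p = 0.659), with 10.8% in IgG1 replicate 1. Without that library the difference of 1.72 points turned to -0.133.

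By level, the order was much the same in both groups. From high to low it ran Rbbp7, Rbbp4, Eed, Ezh2, Bmi1, Jarid2, Suz12, Rnf2, Ezh1 and Kdm6b in IgG1 libraries. In IgM libraries Bmi1 came before Ezh2, and the rest kept that order. Neighbours whose ranges overlapped were Rbbp7 with Rbbp4 and Bmi1 with Jarid2 in IgG1 libraries. In IgM libraries they were Rbbp7 with Rbbp4, Eed with Bmi1, Ezh2 with Jarid2, Jarid2 with Suz12 and Suz12 with Rnf2. Mean levels over all libraries placed the 9 tested genes between percentile 33.9 (Ezh1) and 92.5 (Rbbp7) of all tested genes.

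Over the 10 libraries, the genes whose log2 levels ran most like Ezh1 were Plekhm3 (Pearson r = 0.96), Sla (0.95), Arglu1 (0.94), Hsp90b1 (0.94) and Gripap1 (0.94), and among those most like Ezh2 were Mmd (0.86), Gpr183 (0.84), Bcas2 (0.83) and D17Wsu92e (0.83). These r values are descriptions over 10 libraries that share a group difference, picked as the highest among tested genes that averaged 5 FPKM or more. For Kdm6b the highest was the mitochondrial tRNA mt-Tf (r = 0.90), which was listed at 0 in 9 libraries and at 142 FPKM in IgG1 replicate 1.

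The wider polycomb and trithorax system gave more lower than higher calls in IgG1 cells, a split that other scalings and a higher filter change. Of 67 further genes listed, 57 were tested, of which 8 rose and 19 fell, 14% and 33.3%, beside 18.1% and 20.2% over all tested genes. Their median log2 difference was -0.18, beside -0.05 over all tested genes. The split became 10 higher and 7 lower under quantile normalization and 8 higher and 9 lower without length and GC trends.

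Of 7 PRC2 accessory genes tested, 4 fell and 1 rose (median -0.41), so 71.4% passed, beside 38.3% over all tested genes. Under quantile normalization 2 fell and 1 rose (median -0.32), and without length and GC trends 2 fell and 0 rose (median -0.08). Phf1, a Polycomb-like protein that helps PRC2 bind chromatin, was at 1.14 ± 0.549 FPKM in IgG1 and 3.89 ± 0.804 FPKM in IgM cells (log2 difference -1.21, limma adjusted p = 3.25e-04), without overlap. Its relative Mtf2 was at 13.1 against 17.8 FPKM (adjusted p = 0.0191, log2 difference -0.41), a call that ended without length and GC trends (adjusted p = 0.689) and under 4 other alternatives. Lcorl was at 5.43 against 12.5 FPKM and Lcor at 0.396 against 1.79 FPKM, with a Lcor call that ended under quantile normalization (0.0616) and without length and GC trends (0.074). Epop, which links PRC2 with elongin proteins, was at 1.46 against 0.571 FPKM (adjusted p = 0.0436, log2 difference 0.66), near the threshold, and its call ended under 8 alternatives.

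Of 8 canonical PRC1 genes tested, 3 fell and 0 rose (median -0.45), so 37.5% passed, beside 38.3% over all tested genes. By direction, 37.5% fell and 0% rose, beside 20.2% and 18.1% over all tested genes. Under quantile normalization 1 fell and 1 rose. Cbx7, a reader of the methylated histone, stood at 5.18, 4.03, 6.59, 6.10 and 6.66 FPKM in IgG1 libraries, against 13.9, 12.5, 14.96, 18.0 and 12.7 FPKM in IgM libraries. The groups were far apart (log2 difference -1.21, SE 0.16, limma adjusted p = 1.11e-05). Scmh1 was at 1.252 against 2.86 FPKM and Cbx6 at 1.68 against 3.26 FPKM, the second a call that 11 alternatives ended. The Scmh1 call ended under quantile normalization (adjusted p = 0.0578). Of 15 variant PRC1 genes tested, 3 rose and 1 fell (median 0.09), so 26.7% passed, beside the same 38.3%. L3mbtl2, a chromatin reader, was at 17.4 against 11.2 FPKM, the E2F partner Tfdp1 at 68.2 against 46.1 FPKM, and Skp1a at 143 against 114 FPKM, while the MAX-binding factor Mga was at 1.81 against 4.70 FPKM, a call that ended without length and GC trends (adjusted p = 0.0654). Tfdp1 and Skp1a proteins also serve outside PRC1.

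Enzymes that act on the same histone residue or against polycomb gave calls whose split changed with the scaling. The acetyltransferases Crebbp (3.75 ± 0.833 against 6.35 ± 0.499 FPKM, limma adjusted p = 0.00673) and Ep300 (4.93 ± 1.64 against 7.50 ± 0.758 FPKM, adjusted p = 0.0323) fell with Kdm6a, so all 3 of that list were lower. That share of 100% stands beside 20.2% lower over all tested genes. The calls of Crebbp and Ep300 ended without length and GC trends (adjusted p = 0.0709 and 0.184), and that of Ep300 also under quantile normalization (0.132) and 7 other alternatives. Of 18 trithorax genes tested, 3 rose and 7 fell (median -0.22), so 55.6% passed, beside 38.3% over all tested genes. The H3K4 methyltransferase genes Kmt2c (2.91 against 6.70 FPKM), Kmt2d (0.964 against 2.24) and Kmt2b (0.959 against 2.92) and the H3K36 methyltransferase gene Setd2 (2.70 against 4.70) fell. The subunit genes Dpy30 (113 against 67.8), Men1 (24.5 against 16.8) and Wdr5 (11.8 against 8.31) rose. The calls of Kmt2d, Setd2 and Kmt2b ended under quantile normalization (adjusted p = 0.0786, 0.0863 and 0.052). Those of Kmt2d and Setd2 also ended without length and GC trends (0.0655 and 0.313, with a Setd2 log2 difference of -0.25), and that of Kmt2b without a filter (0.066). The Wdr5 call ended without IgG1 replicate 1 (0.0571) and without IgG1 replicates 4 and 5 (0.0706). Under quantile normalization 3 trithorax genes rose and 1 fell, and without length and GC trends 4 rose and 3 fell. Of 6 PR-DUB genes, which remove H2A ubiquitin, 1 rose (Bap1, 32.5 against 26.0 FPKM) and 1 fell (Asxl2, 6.01 against 8.55 FPKM). That share of 33.3% stands beside 38.3% over all tested genes. The Bap1 call ended without IgG1 replicates 4 and 5 (adjusted p = 0.0584) and under 4 other alternatives, and the Asxl2 call ended under 13 alternatives, with a difference that turned to 0.032 without length and GC trends.

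**Figure D4:**
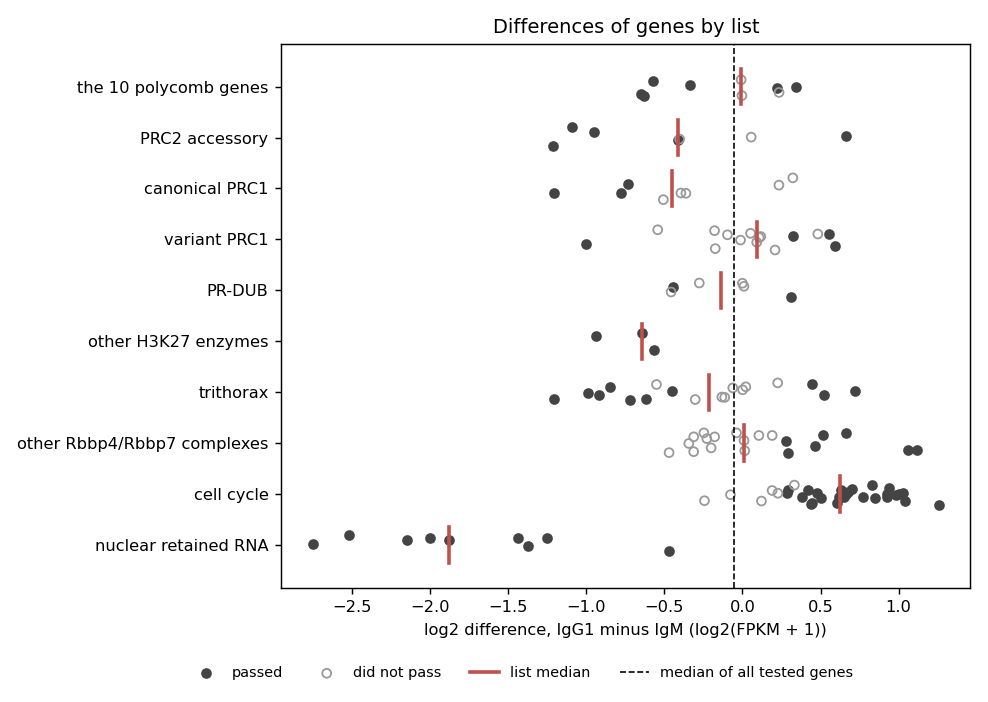
Log2 difference, IgG1 minus IgM, on the log2(FPKM + 1) scale (x axis) for tested genes of 10 lists (y axis). Filled points passed the test, open points did not, red bars are list medians and the dashed line is the median of all tested genes (-0.05). Medians run from -1.88 for nuclear retained RNAs to 0.62 for cell cycle genes.

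Of 20 tested genes of other complexes that hold Rbbp4 and Rbbp7, 7 rose and 0 fell, and 13 did not pass. The share passing was 35%, beside 38.3% over all tested genes, and the median log2 difference was 0.01. By direction, 35% rose and 0% fell, beside 18.1% and 20.2% over all tested genes. The chromatin assembly subunits Chaf1a (17.9 ± 2.11 against 7.85 ± 1.91 FPKM, log2 difference 1.11, limma adjusted p = 2.17e-05) and Chaf1b (20.2 ± 3.58 against 9.12 ± 1.35 FPKM, log2 difference 1.06, adjusted p = 2.35e-05) rose, with no overlap. The histone acetyltransferase gene Hat1 was at 49.3 against 34.2 FPKM, and the deacetylase complex gene Mbd3 at 66.3 against 53.9 FPKM, a call that ended without length and GC trends (adjusted p = 0.416).

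Another 2 gene groups moved alongside these results. Cell cycle genes, many of them E2F targets as Ezh2 is known to be, were higher in IgG1 cells. Of 32 tested, 26 rose and 0 fell (median 0.62), so 81.2% rose, beside 18.1% over all tested genes. Their summed level was 2805 to 2949 FPKM in IgG1 and 1705 to 2026 FPKM in IgM libraries. Rrm2 (445 against 261 FPKM) and Mcm5 (91.3 against 37.7 FPKM), both of DNA synthesis, are examples, while Mki67 (36.4 against 43.2 FPKM, adjusted p = 0.0625) did not pass. Nuclear retained RNAs were lower. Of 9 tested, 0 rose and 9 fell (median -1.88), so 100% fell, beside 20.2% over all tested genes. Their summed level was 700.2 to 1055 FPKM in IgG1 and 3592 to 4789 FPKM in IgM libraries. The part of either group in the differences of polycomb genes was not tested.

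Genes known as polycomb targets were looked at last. None of 39 Hox genes, the classic targets, reached a mean of 1 FPKM. Of these, 24 were listed at 0 in every library, and the highest single value was 0.469 FPKM, for Hoxa5 in IgM replicate 1. Cdkn2a, the target of Bmi1, was at 0.227, 0.0392, 0.0428, 0.0476 and 0.0481 FPKM in IgG1 libraries and listed at 0 in every IgM library, and lay under the filter. At a longest transcript of 895 bases such values rest on very few fragments, and no difference is drawn from them. Cdkn2b, its neighbour, was at 0.0322, 0.377, 0, 0 and 0.54 FPKM in IgG1 libraries, against 1.49, 0.538, 1.07, 1.23 and 1.66 FPKM in IgM libraries, and also lay under the filter. Of 3 tested B cell targets, 2 fell, a share of 66.7% beside 20.2% over all tested genes. The plasma cell regulator Prdm1, a known EZH2 target, fell (29.2 ± 2.70 against 53.5 ± 2.71 FPKM, log2 difference -0.86, limma adjusted p = 6.37e-07), as did Irf4, another such regulator (55.7 against 65.5 FPKM, adjusted p = 0.0496), a call that 11 alternatives ended. Prdm1 and Irf4 are also among the 7 plasma cell markers, of which 6 fell and 1 rose. Those shares of 85.7% and 14.3% stand beside 20.2% lower and 18.1% higher over all tested genes. Whether polycomb has a part in the fall of Prdm1 and Irf4 was not tested. The cell cycle inhibitor Cdkn1a (2.43 ± 1.04 against 1.30 ± 0.519 FPKM, adjusted p = 0.0966) did not pass.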

How the data were processed

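RNA was measured in 10 libraries of sorted mouse splenic plasma cells, grouped by title. RNA, per the labels' protocols, came from the miRNeasy Micro kit and libraries from the SMART-Seq mRNA HT LP kit. Per the submitters' processing notes, HISAT2 2.1.0, Cufflinks 2.2.1, Cuffdiff and the build GRCm38 were used, but their roles and settings were not stated. The deposited files, per the file headers, hold FPKM, 1 file per library, with no scaling between libraries stated. Depth is an estimate and gives no counting interval.

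Of 47719 identifiers, 47305 matched GENCODE M21. Genes averaging 1 FPKM or more entered limma 3.58.1 as log2 values with a pseudocount of 1 (R 4.3.3, trend and robust, group as the only term, two-sided, Benjamini-Hochberg over all tested genes). That scale understates changes of low genes. Shares were compared with exact permutation tests over 252 arrangements (scipy 1.17.1). Scripts used Python 3.11.15. The test was also run on simulated libraries, where most of the smallest changes did not pass. Far fewer genes changed there than passed here, so that run does not measure the error rate in these data. Named genes were the 10 members, up to 4 passing genes per direction of each list by smallest adjusted p, otherwise the 2 most abundant, and the 5 genes most like Ezh1, Ezh2 and Kdm6b; Mki67, Cdkn1a, Cdkn2a and Cdkn2b, Pcgf2, Txlng, Trmt1l and Gm5946 were added after their values were seen. A few genes that the rule names are not reported here. Members, lists, the removal of length and GC trends (4 spline degrees of freedom) and the dropping of IgG1 replicates 4 and 5 were chosen with earlier results of these data known. Of 1 listed gene, Ezhip, no symbol matched. Alternatives were other pseudocounts (0.1 and 5), filters and scalings, a replicate block, and libraries left out. The test of the Kdm6b mean was chosen after the data were seen.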

Additional observations from a re-analysis of the deposited data

Results flagged for a closer look

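Among 30 groups of 5 libraries examined (10 genes and 5 shares in each isotype), 4 held a value far from the others by Dixon's gap test, and chance alone flags about 1 in 20 groups. Ezh2 in IgG1 replicate 4 was at 23.8 FPKM, below the other IgG1 libraries. Jarid2 in IgG1 replicate 5 was at 27.7 FPKM, above the other IgG1 libraries. Kdm6b in IgG1 replicate 1 was at 0.719 FPKM, and the Kdm6b share of the 2 demethylase genes in that library was 10.8%, both above the other IgG1 libraries.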

How the results depend on the processing

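Counts over all tested genes, 3792 in the values as deposited, kept within 1.5 times under every alternative run (3428 to 3578 with single libraries left out), although the split of 1791 higher and 2001 lower became 2182 and 1510 under quantile normalization and 2154 and 1321 without length and GC trends. Of the 10 polycomb genes, 6 passed; 3 did under quantile normalization and 3 without IgG1 replicates 4 and 5, and 4 to 6 with single libraries left out. Of the 57 further genes, 27 passed, against 16 with a mean of at least 5 FPKM (31 genes tested), 17 under quantile normalization and 17 without length and GC trends; the cause of the last 2 was not tested. The log2 difference of Eed turned to 0.018 under median-ratio scaling, 0.020 under quantile normalization and 0.057 without length and GC trends (-0.084 to 0.034 with single libraries left out), that of Jarid2 to 0.023, 0.066 and 0.26 (-0.12 to 0.080), and that of Asxl2 to 0.032 without length and GC trends. The Ezh2 share of the 2 catalytic genes differed by 8.55 to 11.7 points with single libraries left out, 10.1 without IgG1 replicates 4 and 5 and 10.2 with the replicate block; the adjusted p-values there (0.0794, 0.179 and 0.312) come from designs that cannot pass, since 4 against 5 libraries cannot go below 0.0794, 3 against 5 below 0.179, and 5 pairs below an unadjusted 0.0625. The Rnf2 share ranged from -4.29 to 0.479 points, the Kdm6b share from -0.133 to 2.27 and the Kdm6b mean from -0.106 to 0.0639 FPKM with single libraries left out. With 1 FPKM added to both genes, the Bmi1 share differed by -2.14 points (adjusted p = 0.0132) and the Kdm6b share by 7.28 points (adjusted p = 0.0132), since the added value exceeds the level of Pcgf2 or Kdm6b. Same-numbered libraries did not deviate together (correlations of -0.036 to 0.097 over tested genes), so the numbers were not taken as pairs, and with the replicate block the polycomb genes gave 2 higher and 3 lower calls, with Suz12 at an adjusted p of 0.0545. Kdm6b, at 10 to 127 fragments at most, is limited by depth.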

Other observations

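Some genes of other silencing systems were higher in IgG1 cells. Of 12 tested genes of DNA methylation and H3K9 methylation, 5 were higher and 0 lower in IgG1 cells (median log2 difference 0.46, beside -0.05 over all tested genes). The share passing was 41.7%, beside 38.3% over all tested genes. By direction, 41.7% were higher and 0% lower, beside 18.1% and 20.2% over all tested genes. Dnmt1, the maintenance DNA methyltransferase, was at 48.5 ± 3.42 FPKM in IgG1 and 20.9 ± 1.30 FPKM in IgM cells (SD, n = 5 each; log2 difference 1.18, limma adjusted p = 2.27e-08). Suv39h1, an H3K9 methyltransferase, was at 32.8 ± 4.01 against 18.9 ± 4.43 FPKM (adjusted p = 2.46e-04), and the heterochromatin gene Cbx3 at 9.995 ± 1.47 against 6.74 ± 0.742 FPKM (adjusted p = 0.0128), a call that ended without IgG1 replicates 4 and 5 (adjusted p = 0.0898). Genes of rapid induction moved the other way. Of 16 tested, 1 was higher (Myc) and 13 lower in IgG1 cells (median log2 difference -1.10). These shares of 6.25% and 81.2% stand beside 18.1% and 20.2% over all tested genes. Their summed level was 209.3 to 294.1 FPKM in IgG1 and 449.6 to 704.6 FPKM in IgM libraries.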
